A study of Mus musculus with 16 samples.

Results

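Amniotic ectoderm and non-neural ectoderm, kept apart as 2 cell type labels, were examined in chimeric mouse embryos in which *Stat3* null cells developed beside wild-type (WT) cells of the host. A cell was a member if the label was the most frequent one among its 25 nearest neighbours in a reference atlas of mouse gastrulation and early organogenesis, at any stage, and if it passed the quality filter and was not called a doublet. In all, 730 of 37841 analysed cells (1.93%) were members, 432 labelled amniotic ectoderm (248 null and 184 WT) and 298 labelled non-neural ectoderm (157 null and 141 WT). The embryos were made by injecting tdTomato+ *Stat3* null embryonic stem cells (ESCs) into WT CD1 blastocysts. Whole embryos were dissociated on 1 of 3 days, the first E7.5 and the last E9.5, and sorted into tdTomato+ (null) and tdTomato- (WT) cells, from which 3′ single-cell RNA libraries were made. Each genotype had 4 libraries at E9.5 and 2 at each of the earlier stages, called A to D within a group, where a letter is only a name. Embryos of the 2 earlier stages were pooled before the sort, while those of E9.5 were handled singly, and null and WT cells were sorted from the same embryos. Which library came from which pool or embryo is not known here. Null cells descended from ESCs kept in culture and WT cells from the host blastocyst, so the loss of *Stat3* and the origin of the cells cannot be told apart. P-values below measure the spread between libraries or, in fits with the library as a term, of the differences between labels within a library. Since the methods give fewer E9.5 embryos than E9.5 libraries of a genotype, some of these libraries share an embryo.

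The amniotic ectoderm is the ectodermal sheet of the amnion, the membrane that closes over the embryo and lines the fluid-filled cavity around it. It is continuous with the surface ectoderm, which covers the embryo and forms the epidermis. Both are simple epithelia at these stages, rich in keratin 8 and keratin 18 filaments, and depend on bone morphogenetic protein (BMP) signals and on AP-2 transcription factors such as TFAP2A. Non-neural ectoderm is the broader name for ectoderm that does not take the neural path, from which surface ectoderm, placodes and amnion arise. STAT3 is a transcription factor activated by cytokine receptors of the LIF and IL-6 family, and SOCS3 is an inhibitor that STAT3 induces.

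Few cells stood behind each value. A library held between 2 and 107 amniotic ectoderm cells and between 1 and 94 non-neural ectoderm cells, and only libraries with more than 15 cells of a label entered the tests of gene levels, while the tests of cell shares used all libraries. The median depth was 25413.5 UMIs per cell in amniotic ectoderm and 34881 in non-neural ectoderm. Levels are given in CPM, the UMIs of a gene after the summed cells of a library were scaled to a total of 1000000. Libraries of 1 group differed by more than sampling noise, with a chi-square per degree of freedom of 1.94 to 2.89. Of the 730 member barcodes, 19 also occurred in another library, and none was shared between members. Under the rule for WT cells, 9 cells of WT libraries were dropped because they held a tdTomato UMI, and a tdTomato UMI was present in 96.0% of null members.

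The amniotic ectoderm label held its defining markers, while other ectoderm markers varied in rank. *Krt8* (GRCm38 chr15:101996698-102004482, minus strand), which encodes keratin 8, stood at 2049 CPM over all member cells, the highest of 80 labels with visceral endoderm next at 1623 CPM. *Krt18*, encoding its filament partner keratin 18, was second of 80 at 1705 CPM, and both were found in 100% of the amniotic ectoderm cells. *Wnt6*, a ligand of surface ectoderm, was also second at 458 CPM. *Gata3*, *Grhl3* and *Msx2*, transcription factors of surface epithelia, were highest in amniotic ectoderm, at 82.4, 36.8 and 161 CPM. *Tfap2a* stood at 60.5 CPM, below epidermis with 136 CPM and surface ectoderm with 104 CPM. Other ectoderm markers ranked lower. *Dlx5* was 7th of 80 at 30.6 CPM, *Krt19* 9th at 171 CPM and *Tfap2c* 11th at 8.67 CPM. *Epcam* and *Cldn6* were both 16th, at 496 and 110 CPM. These ranks are descriptions, since the labels were themselves assigned from expression. The label score, the share of the 25 nearest atlas cells that carried the label, had a median of 1 in amniotic ectoderm, and 84.7% of the cells had the full score.

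Markers of placodes, neural tissue and endoderm were low in amniotic ectoderm, whereas those of trophoblast, epiblast and mesoderm were mixed. *Elf5*, which defines extraembryonic ectoderm, stood at 0.0876 CPM against 239 CPM in the cells labelled extraembryonic ectoderm. *Esx1* and *Plac1*, genes of the placenta, stood at 15.2 and 29.4 CPM, above the 8.91 and 20.1 CPM of extraembryonic ectoderm. Neither was confined to trophoblast, since *Esx1* was highest in extraembryonic endoderm at 49.1 CPM and *Plac1* in allantois at 122 CPM. *Rhox5*, *Ascl2* and *Tfap2c* stood at 3.15, 2.72 and 8.67 CPM, against 1593, 72.1 and 139 CPM in extraembryonic ectoderm. The 9 trophoblast markers summed to 23.4 to 164 CPM per library, which overlapped the endoderm sums given below. The 6 epiblast markers summed to 470 CPM in E7.5 null A and to 69.9 to 161 CPM at the later stages, and *Pou5f1*, the pluripotency factor OCT4 of the epiblast, had a UMI in 93.3% of the 30 amniotic ectoderm cells of E7.5. The summed level of 7 placode markers was at most 11.9 CPM per library, that of 8 neural markers at most 57.5 CPM and that of 8 endoderm markers at most 82.0 CPM. The summed level of 10 mesoderm markers was 1414 to 2327 CPM, of which *Ahnak*, a large scaffold protein, gave 1172 CPM over all cells and *Hand1* gave 461 CPM. *Ahnak* was highest of 80 labels in amniotic ectoderm itself, with mesenchyme next at 611 CPM. *Hand1*, a transcription factor of extraembryonic mesoderm and of amnion, was exceeded in only 2 of the other labels, yolk sac mesothelium and mesenchyme. The mesoderm matrix gene *Postn* stood at only 2.45 CPM in amniotic ectoderm against 625 CPM in yolk sac mesothelium.

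The non-neural ectoderm label ranked high for some of its markers but not for keratins, and its cells changed with stage. *Tfap2a* was sixth of 80 labels at 53.2 CPM, but *Krt8* was only 23rd at 214 CPM and *Krt18* only 22nd at 297 CPM. *Tfap2c* and *Dlx5* were both 5th, at 25.5 and 35.0 CPM, above the 8.67 and 30.6 CPM of amniotic ectoderm. *Wnt6* was 6th at 75.7 CPM and *Gata3* 7th at 32.4 CPM. *Krt7*, *Krt19*, *Epcam*, *Cldn6* and *Grhl3* were 16th, 27th, 17th, 18th and 15th. At E7.5, *Pou5f1* stood at 358, 571, 397 and 442 CPM in the 4 libraries. At E9.5 it was at 0 CPM in 7 of 8 libraries and at 1.48 CPM in null A. *Sox2*, a factor of epiblast and neural progenitors, was 20.4 to 85.6 CPM at E7.5 and 98.9 to 791 CPM at E9.5, and the stages did not overlap. *Pax6*, a factor of neural tube and eye, was at most 0.885 CPM at E7.5 and between 27.2 and 136 CPM at E9.5.

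Marker lists gave the same order. Among libraries with more than 15 non-neural ectoderm cells, the summed level of 6 epiblast markers was 773 to 1115 CPM at E7.5 and 41.7 to 52.5 CPM at E9.5. The summed level of 8 neural markers was 85.8 to 152 CPM at E7.5 and 498 to 513 CPM at E9.5. The label score was lower at later stages, with medians of 0.84 at E7.5, 0.60 at E8.5 and 0.48 at E9.5, where 51.4% of the cells scored under 0.5. The 14 epidermal genes summed to 186 to 211 CPM at E7.5 and 170 to 203 CPM at E9.5 in these libraries, and the 12 amnion markers to 1324 to 1653 CPM and 745 to 1108 CPM. Other lists moved too. The 6 crest markers summed to 20.3 to 31.1 CPM at E7.5 and 203 to 215 CPM at E9.5. Placode markers, 7 in number, summed to 19.5 to 24.7 CPM and 102 to 212 CPM, and 10 mesoderm markers to 226 to 276 CPM and 529 to 534 CPM. Blood markers were also higher at E9.5, and endoderm and trophoblast markers lower. Epithelial markers were thus present at both stages. Beside them stood epiblast markers at E7.5 and neural, crest, placode and mesoderm markers at E9.5, and the name is used below only as the authors' label. Beside *Pou5f1*, the genes with the highest ratios to all other cells, after 5 CPM were added to both levels, included *Slc2a3*, *Epcam* and *Lrp2*, with 639, 433 and 78.3 CPM over all cells. *Slc2a3* encodes a glucose transporter and *Epcam* an epithelial adhesion molecule.

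**Figure D1:**
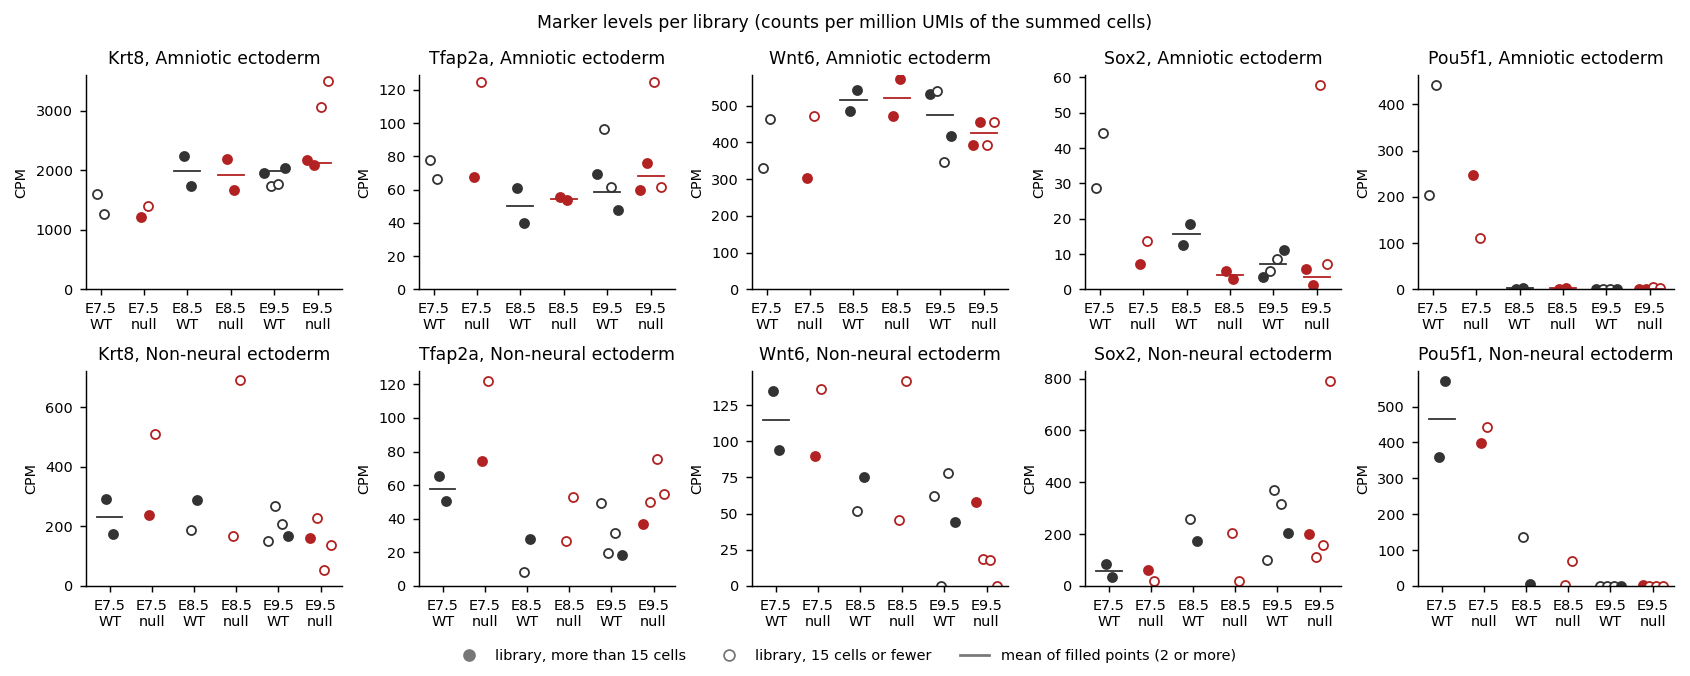
Marker levels in CPM (vertical axes) in each of the 16 libraries by stage and genotype, for amniotic ectoderm (top row) and non-neural ectoderm (bottom row). Filled points are libraries with more than 15 cells of the label, hollow points those with fewer, and lines are means of filled points. *Krt8* lay between 1661 and 3491 CPM in amniotic ectoderm at E8.5 and E9.5 and between 54.4 and 690 CPM in non-neural ectoderm, where *Pou5f1* was high at E7.5 and *Sox2* higher at E9.5.

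The promoters of 3 epithelial genes of amniotic ectoderm are shown because AP-2 factors, such as TFAP2A, bind palindromes of the form GCCNNNGGC. Windows of 300 bases, from 250 before to 50 after the gene start, were taken from RefSeq on GRCm38.p6. GCCNNNGGC, which reads the same on both strands, occurred in 16.6% of 32851 such windows, and *Krt18*, *Krt7* and *Wnt6* held it while *Krt8*, *Grhl3* and *Tfap2a* did not. Among further epithelial genes described below, *Cldn3* held it and *Cldn4*, *Upk1a*, *Upk3b*, *Nectin4* and *Sfn* did not. The windows shown were picked because they held a match. The window of *Krt18* (chr15:102027966-102028265, plus strand) held 1 match that began 83 bases before the start. That of *Krt7* (chr15:101412153-101412452, plus strand) held 2, the first 146 bases before it, and that of *Wnt6* (chr1:74771642-74771941, plus strand) held 1, which began 12 bases before it. A match is a string of letters and not a bound site. Capitals mark the matches.
Krt18: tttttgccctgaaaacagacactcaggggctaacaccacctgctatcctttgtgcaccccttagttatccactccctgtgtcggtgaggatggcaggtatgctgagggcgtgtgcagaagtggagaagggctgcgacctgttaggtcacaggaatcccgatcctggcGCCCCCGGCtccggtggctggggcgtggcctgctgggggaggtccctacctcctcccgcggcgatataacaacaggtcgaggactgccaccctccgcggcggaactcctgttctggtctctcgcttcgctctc
Krt7: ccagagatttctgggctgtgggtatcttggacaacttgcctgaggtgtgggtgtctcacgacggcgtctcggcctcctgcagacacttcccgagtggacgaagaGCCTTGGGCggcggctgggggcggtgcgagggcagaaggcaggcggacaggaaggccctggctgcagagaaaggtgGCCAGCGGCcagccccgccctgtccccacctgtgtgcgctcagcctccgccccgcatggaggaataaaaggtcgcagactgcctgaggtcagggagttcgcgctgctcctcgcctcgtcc
Wnt6: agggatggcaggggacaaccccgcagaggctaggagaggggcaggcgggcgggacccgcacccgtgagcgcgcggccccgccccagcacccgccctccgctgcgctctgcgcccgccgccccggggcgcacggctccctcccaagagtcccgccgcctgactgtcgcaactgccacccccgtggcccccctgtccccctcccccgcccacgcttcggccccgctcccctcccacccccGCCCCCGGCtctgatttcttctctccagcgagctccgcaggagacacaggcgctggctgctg

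*Tac2*, encoding the tachykinin neurokinin B, was 501 CPM in amniotic ectoderm and 1.15 CPM in all other cells, the highest ratio of any gene not left out of the fits, after 5 CPM were added to both levels, with a UMI in 82.6% of the cells. *Wnt6* was also high, with 458 against 14.3 CPM. *Ppl*, encoding the cornified envelope protein periplakin, was 141 against 2.25 CPM, and *Anxa2*, a calcium-dependent membrane-binding annexin, was 762 against 33.3 CPM. *Lamb3*, a laminin subunit of epithelial basement membranes, was at 21.7 CPM, the highest of 80 labels. *Trp63*, the master regulator of stratified epidermis, was low at 10.8 CPM, against 81.1 CPM in surface ectoderm and 95.9 CPM in epidermis.

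Both labels were found in null and WT cells at every stage. Amniotic ectoderm made up 1.38% and 0.112% of the cells of the E7.5 WT libraries and 0.737% and 0.556% of the null ones. At E8.5 it made up 0.668% and 1.86% in WT and 2.79% and 2.27% in null, and here every null library lay above every WT library. At E9.5 the shares were 0.974%, 0.265%, 0.315% and 1.04% in WT and 1.27%, 1.04%, 0.439% and 0.647% in null, and the groups overlapped. In the edgeR test over the 68 labels of E8.5, of which 0 (0%) were called, the log2 fold change of null over WT was 0.99 (SE 0.58, adjusted p = 0.976), and the exact two-sided permutation test gave p = 0.333, the smallest that 2 against 2 libraries allow. The values were -0.38 (SE 1.18, adjusted p = 0.980) at E7.5, where 11.1% of 27 labels were called, and 0.38 (SE 0.49, adjusted p = 0.996; exact p = 0.457) at E9.5, where 1.41% of 71 labels were called.

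Non-neural ectoderm made up 2.49% and 2.13% of E7.5 WT cells and 4.33% and 0.833% of null cells. At E8.5 it was rarer, with 0.236% and 0.680% in WT and 0.157% and 0.175% in null, and the null values were the lower ones. At E9.5 WT libraries held 0.292%, 0.151%, 0.420% and 0.809% and null libraries 0.693%, 0.581%, 0.439% and 0.0647%, which overlapped. None of the 3 stages passed the test, with log2 fold changes of -0.17 (SE 0.90, adjusted p = 0.980), -1.51 (SE 0.70, adjusted p = 0.972) and 0.18 (SE 0.55, adjusted p = 0.996) from E7.5 to E9.5. Leaving out 1 library turned the sign at E7.5 for both labels, from -1.35 to 2.05 in amniotic ectoderm and from -1.73 to 0.31 in non-neural ectoderm. The atlas stage to which null and WT cells mapped could not be tested on library medians. All amniotic ectoderm libraries in the test had a median of 8.75 days, so every arrangement gave 0 days. In non-neural ectoderm the E7.5 medians tied at 7.75, and E9.5 had 1 library of each genotype. Every arrangement thus differed by 0.375 days in size, with -0.375 days for null minus WT. With means over cells the difference was 0.035 days in amniotic ectoderm (exact two-sided permutation p = 0.389, smallest possible 0.0556). It was -0.129 days in non-neural ectoderm (exact permutation p = 0.833 over 6 arrangements). The mitochondrial percent of UMIs differed by -0.045 points in amniotic ectoderm (exact permutation p = 0.778) and by 0.235 points in non-neural ectoderm (exact permutation p = 0.667).

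**Figure D2:**
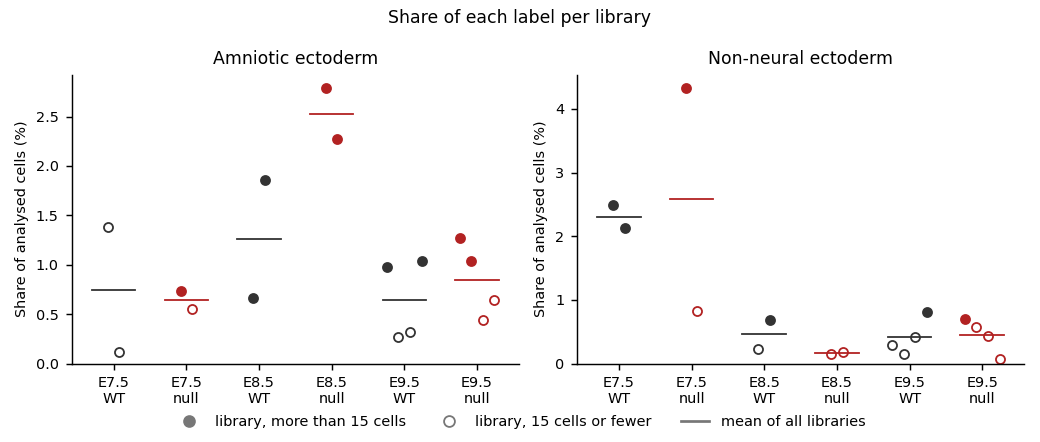
Share of each label among the analysed cells of a library in percent (vertical axes), by stage and genotype, with WT in black and null in red. Filled points are libraries with more than 15 cells of the label, hollow points those with fewer, and lines are means over all libraries of a group. At E8.5 the null libraries lay above the WT libraries for amniotic ectoderm (2.27% and 2.79% against 0.668% and 1.86%) and below them for non-neural ectoderm.

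More genes were called in amniotic ectoderm between stages than between genotypes, and the stage test had more libraries than the genotype test of 1 stage. Between E8.5 and E9.5, 295 of 8017 tested genes were called (3.68%), of which 224 rose (2.79%) and 71 fell (0.886%), by the edgeR quasi-likelihood test at an adjusted p under 0.05 and an absolute log2 fold change over 1, with 4 libraries at each stage and genotype as a term. The claudin genes *Cldn3* and *Cldn4*, the uroplakin gene *Upk1a* and the epidermal genes *Sfn* and *Trp63* were among those that rose, and the actin gene *Acta2* among those that fell. None of the 4 tested keratins was called, although *Krt19* had a log2 fold change of -0.58 (SE 0.12) with an adjusted p of 0.00292. *Krt8* was 1956 ± 297 CPM at E8.5 and 2059 ± 90.9 CPM at E9.5 (SD, n = 4 libraries each), a log2 fold change of 0.01 (SE 0.09, adjusted p = 0.975). *Krt18* had -0.00 (SE 0.09, adjusted p = 0.994). Stage and embryo cannot be told apart in this comparison. Null and WT libraries of a stage were sorted from the same pools or embryos but entered this test as separate libraries. The independent pools or embryos are thus fewer than n, and the p-values between stages can be too small.

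*Upk1a*, encoding the apical plaque protein uroplakin 1A of the bladder lining (chr7:30603092-30612847, minus strand), was 4.21, 1.69, 6.27 and 8.97 CPM in the E8.5 libraries WT A, WT B, null A and null B. In the E9.5 libraries WT A, WT D, null A and null B it was 84.1, 41.7, 76.5 and 49.7 CPM. Every E9.5 library lay above every E8.5 library, and the 4 E9.5 libraries with 15 cells or fewer held 21.9 to 75.8 CPM. The log2 fold change was 3.52 (SE 0.32, adjusted p = 7.84e-07), and the call held in all 14 alternative analyses. *Upk3b*, a further uroplakin, singled out after its values were seen, was 11.8 ± 5.34 CPM at E8.5 and 67.3 ± 25.5 CPM at E9.5, a log2 fold change of 2.21 (SE 0.33, adjusted p = 0.00107), which was 2.94 without E8.5 null A.

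Among 19 tested genes of epithelial junctions 5 rose and none fell, where 2.79% of all genes rose, with a median log2 fold change of 0.33 against 0.00 over all genes. *Cldn4*, a claudin of tight junctions (chr5:134945119-134946934), was 14.7, 5.91, 14.99 and 20.9 CPM at E8.5 and 114, 41.7, 102 and 98.2 CPM at E9.5. Its log2 fold change was 2.69 (SE 0.33, adjusted p = 2.50e-04), and the stages did not overlap. *Cldn3* had 3.21 (SE 0.65, adjusted p = 0.0230), from 3.14 to 8.97 CPM at E8.5 and from 20.4 to 94.3 CPM at E9.5, but its call was lost without any 1 of the E8.5 libraries WT A, WT B, null A and null B (adjusted p = 0.055, 0.081, 0.0983 and 0.0827), with a value of 2.54 without null A. *Cldn6* and *Cldn7* rose by 1.08 and 1.22. The call of *Cldn6* was lost without E8.5 WT B or E9.5 WT A, where the log2 fold change was 0.90 and 0.84, and without E8.5 null B or E9.5 null B (adjusted p = 0.0908 and 0.0665). That of *Cldn7* was lost without any 1 of the 4 E8.5 libraries (adjusted p between 0.0553 and 0.0999) or without E9.5 null A or null B (0.0627 and 0.0581). *Esrp2*, a splicing factor of epithelia, rose by 2.30 (SE 0.50, adjusted p = 0.00341).

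Of 7 tested epidermal genes 3 rose, against 2.79% of all genes. *Sfn*, encoding the keratinocyte protein 14-3-3 sigma, was 22.4 ± 15.1 CPM at E8.5 and 154 ± 39.2 CPM at E9.5, a log2 fold change of 2.66 (SE 0.37, adjusted p = 0.00412). *Trp63* was 5.50 ± 1.86 CPM at E8.5 and 22.9 ± 8.77 CPM at E9.5, a log2 fold change of 2.14 (SE 0.38, adjusted p = 4.81e-04). *Perp*, a desmosomal target of p63, rose by 1.37 (SE 0.18, adjusted p = 2.20e-05). Among 13 tested ectodermal transcription factors 2 rose, against the same 2.79% of all genes. These AP-2 genes, *Tfap2b* and *Tfap2c*, rose by 2.23 and 2.01, the latter with an adjusted p of 0.0558 without E9.5 null A, while *Tfap2a* had 0.22 (SE 0.17, adjusted p = 0.471). *Tfap2b* is also a neural crest marker, and the 6 crest markers summed to 35.8 to 59.8 CPM in the E8.5 libraries and 55.0 to 113 CPM in the E9.5 libraries. Epiblast markers summed to 96.5 to 161 CPM at E8.5 and 69.9 to 94.6 CPM at E9.5, endoderm markers to at most 82.0 and 37.7 CPM, placode markers to 1.50 to 5.07 CPM and 5.24 to 11.9 CPM, and trophoblast markers to 50.7 to 164 CPM and 23.4 to 79.6 CPM. Of the trophoblast list *Tfap2c* rose and *Plac1* fell by 1.31, the latter with an adjusted p of 0.0546 without E9.5 null A. Blood markers summed to 1033 to 1061 CPM in E8.5 WT and 622 to 956 CPM in E9.5 WT libraries. In null libraries they summed to 254 to 996 CPM at E8.5 and 9.16 to 40.2 CPM at E9.5. The part of such transcripts in the stage changes was not tested. Without E8.5 null A the log2 fold change of *Sfn* was 3.26.

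**Figure D3:**
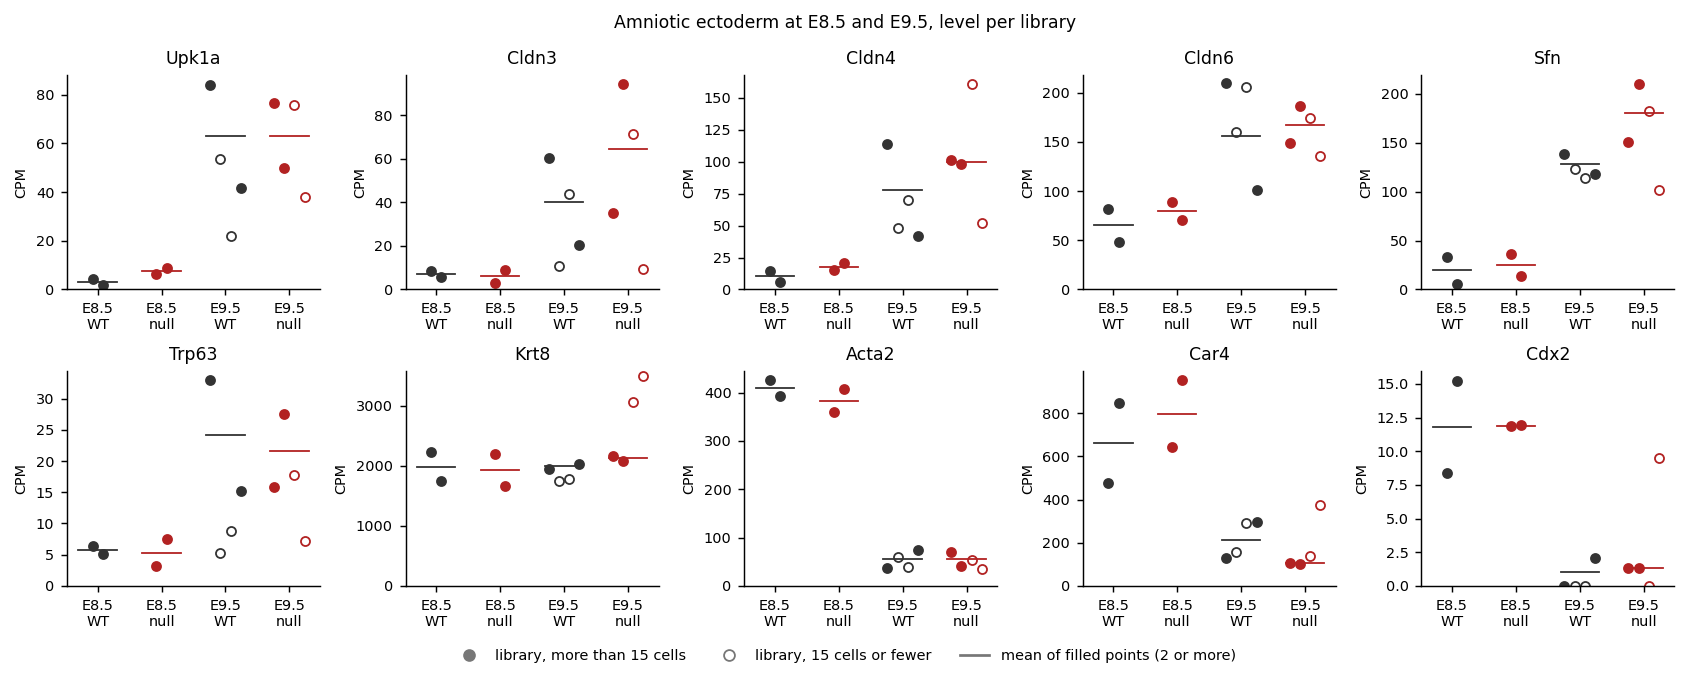
Level in CPM (vertical axes) of 10 genes in amniotic ectoderm of each E8.5 and E9.5 library, with WT in black and null in red. Filled points are libraries with more than 15 cells, hollow points those with fewer, and lines are means of filled points. *Upk1a*, *Cldn3*, *Cldn4*, *Cldn6*, *Sfn* and *Trp63* were higher at E9.5 in the filled libraries, *Acta2*, *Car4* and *Cdx2* were lower, and *Krt8* had a log2 fold change of 0.01.

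The other genes with the largest rise were *Nectin4*, a cell adhesion molecule (log2 fold change 5.25), *Myof*, a membrane repair protein (4.25), *Snx31*, a sorting nexin (3.98), *Aldh3b2*, an aldehyde dehydrogenase (3.35), *Col12a1*, a fibril-associated collagen (3.07), *Nfib*, a transcription factor (2.94), *Egr1*, an immediate early factor (2.89), and *Samd5* (2.83). *Nectin4* was 1.23 ± 2.02 CPM at E8.5 and 36.0 ± 20.8 CPM at E9.5, and its call was lost without E8.5 null A (adjusted p = 0.0889). The call of *Egr1* was lost without any 1 of the E8.5 libraries WT A, WT B, null A and null B (adjusted p = 0.0542, 0.0504, 0.0987 and 0.0741). *Msmo1* and *Insig1*, of the sterol pathway and singled out after their values were seen, rose by 2.47 and 2.22. Without E8.5 null A the log2 fold changes were 6.49 for *Snx31*, 4.52 for *Col12a1*, 3.60 for *Samd5*, 3.63 for *Insig1* and 3.56 for *Myof*, and without E8.5 WT A that of *Nectin4* was 6.03.

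Among genes that fell, *Acta2*, encoding smooth muscle actin (chr19:34241090-34255590, minus strand), was 425, 392, 360 and 407 CPM in the E8.5 libraries WT A, WT B, null A and null B. It was 36.4, 73.3, 69.9 and 41.9 CPM in the E9.5 libraries WT A, WT D, null A and null B. The groups stood far apart, and the log2 fold change was -2.85 (SE 0.17, adjusted p = 4.99e-08), which held in all 14 alternatives. *Tagln*, encoding the actin-binding protein transgelin and singled out after its values were seen, was 521 ± 178 CPM at E8.5 and 151 ± 32.0 CPM at E9.5, a log2 fold change of -1.84 (SE 0.18, adjusted p = 8.34e-05). *Acta1*, skeletal muscle actin, had -4.91, which was -2.36 (adjusted p = 0.221) once libraries with at least 5 cells entered. *Pdlim3*, which encodes a muscle Z-disc protein, had -2.04.

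*Cdx2*, a homeobox factor of trophoblast and posterior embryo, was 11.9 ± 2.77 CPM at E8.5 and 1.17 ± 0.848 CPM at E9.5, a log2 fold change of -3.31 (SE 0.56, adjusted p = 3.04e-04). It was the only called gene of 13 tested axial position genes, where 0.886% of all genes fell. *Stmn2*, a microtubule regulator of neurons, had -4.00, *Glipr2* -2.88, *Vwc2*, a secreted BMP inhibitor, -2.77, and *Ntng1*, a membrane-anchored netrin, -2.74. The imprinted gene *Phlda2*, a brake on placental growth, had -4.07 (adjusted p = 0.0477), and *Car4*, a carbonic anhydrase, -2.32 (adjusted p = 0.0382). Without E8.5 null B the value of *Phlda2* was -3.47. Both calls were lost in 7 of 14 alternatives, in *Phlda2* without E8.5 WT A or WT B or any of the 4 E9.5 libraries (adjusted p = 0.0539, 0.143, 0.141, 0.0933, 0.153 and 0.132) and in *Car4* without E8.5 WT B, null A or null B or E9.5 WT A, null A or null B (adjusted p = 0.128, 0.0844, 0.0756, 0.11, 0.13 and 0.117).

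In the signalling lists, 4 of 18 tested genes of the STAT3 pathway rose and 1 fell between E8.5 and E9.5, against 2.79% and 0.886% of all genes. Null libraries were part of both stages in this test. No tested gene of the list was called between null and WT amniotic ectoderm, and STAT3 activity was not tested. *Junb*, an AP-1 transcription factor, was 12.1 ± 1.82 CPM at E8.5 and 51.9 ± 9.29 CPM at E9.5, a log2 fold change of 2.11 (SE 0.22, adjusted p = 7.24e-07). *Fos* rose by 2.30, the cyclin gene *Ccnd1* by 1.12 and the interferon-induced *Ifitm3* by 1.06. The call of *Fos* was lost without E8.5 null A (adjusted p = 0.0526), and that of *Ifitm3* without E8.5 WT B, E8.5 null A or E9.5 null B, where the log2 fold change was 0.92, 0.93 and 0.84. *Lifr*, the receptor subunit for LIF, was 47.4 ± 6.46 CPM at E8.5 and 22.5 ± 6.28 CPM at E9.5, a log2 fold change of -1.15 (SE 0.21, adjusted p = 7.05e-04). *Fos*, *Junb* and *Egr1* are immediate early genes. Of 16 tested Wnt genes *Wnt7b*, a ligand, and *Sfrp1*, a secreted inhibitor, rose by 1.83 and 2.03, and the inhibitor *Dkk1* fell by 1.07, a call lost without E9.5 WT D, where the log2 fold change was -0.997. None of 18 tested BMP genes was called, of which 7 had an unadjusted p under 0.05, against 1957 of all 8017 genes. *Bmp4*, *Id3* and *Msx2* had log2 fold changes of -0.87, -0.54 and -0.41 with adjusted p-values of 0.0203, 0.0211 and 0.0405. Over all 8017 genes 905 had an adjusted p under 0.05.

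Surface ectoderm, the neighbouring tissue, was used to see where the stage change of amniotic ectoderm differed. In a fit over the 8 libraries that held more than 15 cells of both labels, with the library as a term and chosen after the data were seen, 190 of 9307 genes (2.04%) differed in their E9.5 against E8.5 effect, 94 with a larger and 96 with a smaller log2 change in amniotic ectoderm. The 295 genes called between stages in amniotic ectoderm were picked from sums that also enter this test, which favours passing in the same direction. Of these, 52 passed it in that direction. *Upk1a* was among them, with a difference of 4.55 (SE 0.46, edgeR adjusted p = 1.43e-06) and -1.11 (SE 0.50, adjusted p = 0.194) in surface ectoderm itself. *Cldn3* and *Cldn4* differed by 3.17 and 2.58, with -0.07 (adjusted p = 0.877) and 0.02 (adjusted p = 0.965) in surface ectoderm. *Nectin4*, *Aldh3b2*, *Tfap2c*, *Trp63* and *Wnt7b* differed by 5.10, 4.69, 2.68, 1.38 and 1.68. Among the genes that fell, *Acta2* differed by -2.65 (SE 0.45, adjusted p = 3.76e-04), *Stmn2* by -3.63 and *Lifr* by -1.91.

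Other stage changes were also present in surface ectoderm, and the difference did not pass the test. *Samd5* rose by 2.60 in surface ectoderm (difference 0.13, SE 0.40, adjusted p = 0.942) and *Perp* by 1.22 (difference 0.16, SE 0.19, adjusted p = 0.785). *Nfib* rose by 2.84 there, with a difference of 0.06 (edgeR adjusted p = 0.997). The SE of that difference, 2.73, was derived from an F statistic near 0 and does not measure its precision. *Car4* fell in both, with -2.32 in amniotic and -3.15 in surface ectoderm. *Krt8* fell by 1.01 in surface ectoderm (adjusted p = 0.0300), and its difference of 1.00 (SE 0.31) had an adjusted p of 0.184. A stage comparison was not made for non-neural ectoderm, since only 1 of its E8.5 libraries held more than 15 cells.

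The targeted gene was scarce in these cells. *Stat3* stood between 3.38 and 12.6 CPM in the E8.5 WT libraries of amniotic ectoderm and at 2.79 and 4.48 CPM in the null ones. Over the 16 libraries it was 0 to 12.6 CPM in amniotic ectoderm and 0 to 7.25 CPM in non-neural ectoderm, and null and WT overlapped. A 3′ tag can lie outside the deleted part of the gene, so these reads are no check of the genotype. *Stat3* passed the filter only in amniotic ectoderm over all stages, with a log2 fold change of null over WT of -0.86 (SE 0.68, edgeR adjusted p = 0.940). The tdTomato transcript was at 0 CPM in WT members, as the rule requires, and at 145 to 303 CPM in the null libraries of amniotic ectoderm and 54.6 to 227 CPM in those of non-neural ectoderm. The STAT3 target *Socs3* was 0 to 21.4 CPM in amniotic ectoderm at E8.5 and E9.5, with -0.80 (SE 0.41, adjusted p = 0.853) over stages.

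The promoter of *Socs3* (chr11:117969317-117969616, minus strand) is shown as a reference for the palindrome TTCNNNGAA that STAT factors bind, and that of *Igfbp3* (chr11:7213874-7214173, minus strand) because *Igfbp3* was called between null and WT in both labels. TTCNNNGAA, which reads the same on both strands, occurred in 8.3% of the 32851 RefSeq windows on GRCm38.p6. The *Socs3* window held 1 match that began 154 bases before the start, in capitals, and the *Igfbp3* window held none. Of the 30 genes called between null and WT or between the labels, 19 had a window, and 0 of these held TTCNNNGAA, which says nothing about binding elsewhere.
Socs3: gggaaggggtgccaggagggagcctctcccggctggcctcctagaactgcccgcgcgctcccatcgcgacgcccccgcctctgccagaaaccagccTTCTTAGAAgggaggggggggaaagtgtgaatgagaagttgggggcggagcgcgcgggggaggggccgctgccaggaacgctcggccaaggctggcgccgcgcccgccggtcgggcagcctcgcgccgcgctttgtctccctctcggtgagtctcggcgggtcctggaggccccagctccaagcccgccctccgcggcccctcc
Igfbp3: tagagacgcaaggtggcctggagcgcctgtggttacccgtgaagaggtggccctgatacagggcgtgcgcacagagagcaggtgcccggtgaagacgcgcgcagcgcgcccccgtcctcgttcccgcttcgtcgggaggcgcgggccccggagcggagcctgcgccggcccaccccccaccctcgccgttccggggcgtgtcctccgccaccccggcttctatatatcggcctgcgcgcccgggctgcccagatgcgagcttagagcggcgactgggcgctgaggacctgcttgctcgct

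Few genes were called between null and WT amniotic ectoderm, in tests with 4 libraries at each stage, which can miss true differences. At E8.5, 1 of 7609 genes was called by the edgeR test (0.0131%), and at E9.5, 7 of 7999 (0.0875%), 2 higher (0.025%) and 5 lower (0.0625%) in null. None of the tested members of the keratin, amnion marker, epidermal, junction, BMP, Wnt or STAT3 pathway lists was called at either stage. With so few calls over all genes, the absence of a call in a list says little about its genes. Unadjusted p-values under 0.05 were found for 463 of all genes at E8.5 and 374 at E9.5. *Krt8*, *Krt18*, *Tfap2a* and *Wnt6* had log2 fold changes of -0.02, 0.04, 0.22 and 0.02 at E8.5 and of 0.05, -0.06, 0.15 and -0.21 at E9.5, with adjusted p-values of 0.920 or higher. For *Krt8* the SE was 0.15 at E8.5 and 0.12 at E9.5. Blood marker transcripts moved with genotype in these cells, with a summed level of 6 markers of 622 to 956 CPM in E9.5 WT and 9.16 to 40.2 CPM in E9.5 null libraries, and of 1033 to 1061 CPM in E8.5 WT and 254 to 996 CPM in E8.5 null libraries. The 8 endoderm markers summed to 61.1 to 82.0 CPM in E8.5 WT and 27.5 to 41.9 CPM in E8.5 null libraries, and at E9.5, where the groups overlapped, to at most 37.7 CPM in WT and 30.1 CPM in null. Haemoglobin genes were left out of the fits, and the part of such transcripts in the other calls was not tested.

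*Tmem14c*, encoding a mitochondrial transporter of the haem pathway (chr13:41016292-41022586), was 88.4 and 109 CPM in the E8.5 WT libraries and 251 and 229 CPM in the null libraries. The groups were apart, and the log2 fold change was 1.26 (SE 0.17, adjusted p = 0.00456), which held in all 11 alternatives. At E9.5 the WT libraries WT A and WT B, the latter with 7 cells and outside the fit, reached 230 and 235 CPM. The groups of the fit overlapped, and the log2 fold change was 0.28 (SE 0.22, adjusted p = 1.00). In non-neural ectoderm over stages *Tmem14c* had 0.99 (SE 0.13, edgeR adjusted p = 3.88e-06), just under the fold threshold, and the groups were apart. *Cwc22*, encoding a spliceosome factor (chr2:77881159-77946375, minus strand), was 36.4 and 34.6 CPM in the E9.5 WT libraries and 158 and 126 CPM in the null libraries. Its log2 fold change was 1.97 (SE 0.22, adjusted p = 1.11e-05), which also held in all 11 alternatives. The smaller E9.5 libraries had 10.7 and 17.5 CPM in WT and 156 and 235 CPM in null, whereas at E8.5 null and WT overlapped with 0.38 (SE 0.34, adjusted p = 0.903).

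*Igfbp3*, encoding a secreted binding protein for insulin-like growth factors (chr11:7206086-7213923, minus strand), was 53.4 and 79.4 CPM in the E9.5 WT libraries and 5.28 and 10.5 CPM in the null libraries. The log2 fold change was -3.26 (SE 0.36, adjusted p = 1.11e-05), and the smaller E9.5 libraries held 26.3 and 64.2 CPM in WT and 4.75 and 8.92 CPM in null. At E8.5, however, null B had 53.8 CPM, above both WT libraries with 14.7 and 33.8 CPM, while null A had 3.83 CPM. With all stages in 1 fit the E9.5 call was lost (adjusted p = 1), as it was with cells thinned to 10000 UMIs (adjusted p = 0.0999).

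*Nnat*, an imprinted gene for the small membrane protein neuronatin, was 431 and 390 CPM in the E9.5 WT libraries and 88.4 and 66.8 CPM in the null libraries, a log2 fold change of -2.42 (SE 0.17, adjusted p = 1.44e-09). The smaller null libraries stood higher, at 410 and 180 CPM, and with libraries of at least 5 cells the value was -1.47 (adjusted p = 0.884). Without null-sorted cells that lacked a tdTomato UMI it was -2.86 (adjusted p = 1). In null B the 22 cells with a tdTomato UMI held 12.1 CPM of *Nnat* and the 3 cells without one held 413 CPM.

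Other calls at E9.5 were lost when 1 library was left out, which leaves a genotype with 1 library, while the direction was kept. *Fggy*, a carbohydrate kinase, had 47 UMIs in null and 3 in WT, a ratio of 12.8 (95% counting interval 4.12 to 64.3), and *Nptx1*, a secreted neuronal pentraxin, had 3 and 36, a ratio of 0.0681 (0.0134 to 0.215). *En1*, a homeobox factor of limb and brain, had 12 and 57, and *Col5a2*, a fibrillar collagen, 93 and 163. Each of these 4 calls was lost without null A or null B, with adjusted p-values of 0.83 and 1 for *Fggy*, 0.322 and 0.476 for *Nptx1*, 0.345 and 0.258 for *En1*, and 0.751 and 0.775 for *Col5a2*. They were also lost without WT D for *Fggy*, *Nptx1* and *En1* (0.192, 0.55 and 0.29) and without WT A for *Col5a2* (0.127). With each of the 4 libraries left out in turn, the log2 fold change was 2.53 to 7.48 for *Fggy*, -7.10 to -3.25 for *Nptx1*, -2.96 to -2.20 for *En1* and -1.39 to -0.89 for *Col5a2*. Settings that drop no library lost these calls too. Over all alternatives the call was lost in 5 of 10 for *Fggy*, 5 of 9 for *Nptx1*, 6 of 10 for *En1* and 9 of 11 for *Col5a2*. The test of a different null effect at E9.5 and E8.5, chosen after the data were seen, called 0 of 8390 genes (0%), with an unadjusted p under 0.05 for 367. It was run in edgeR only.

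**Figure D4:**
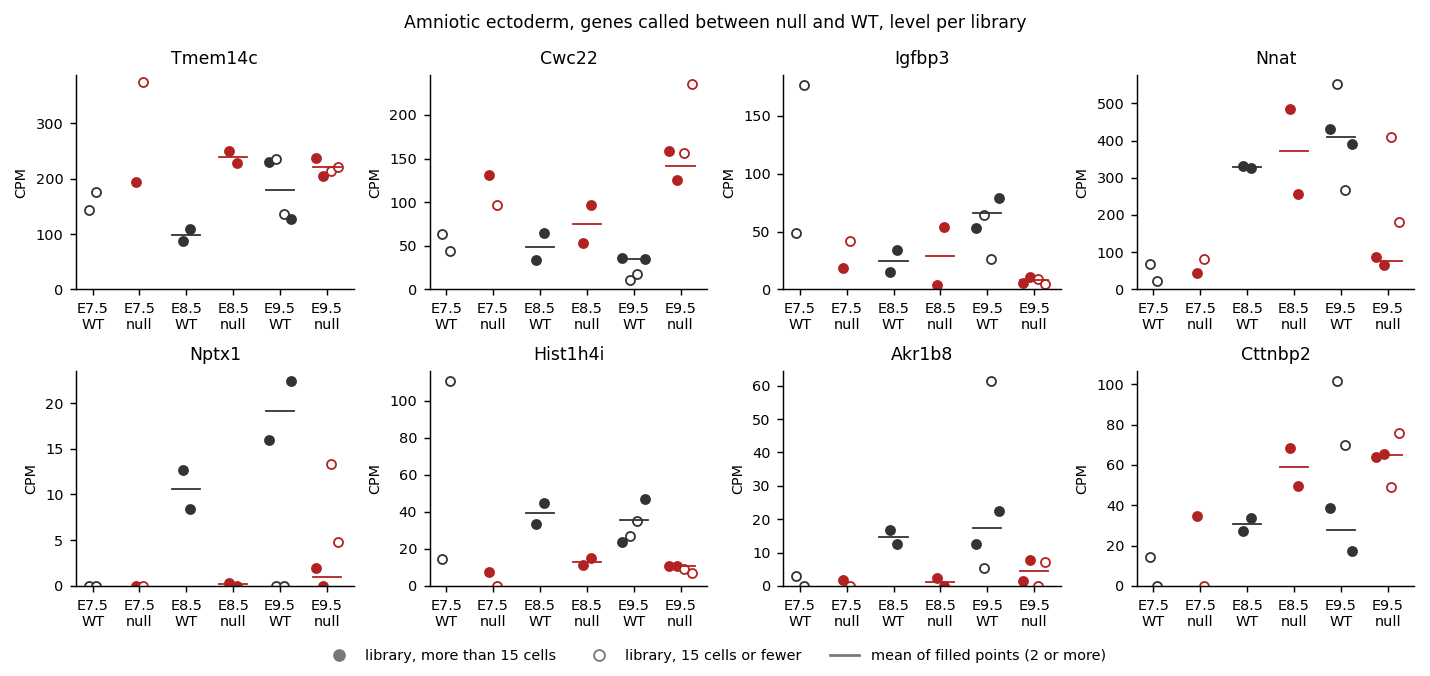
Level in CPM (vertical axes) of 8 genes called between null (red) and WT (black) in amniotic ectoderm, in each library by stage. Filled points are libraries with more than 15 cells, hollow points those with fewer, and lines are means of filled points. *Cwc22* was 126 and 158 CPM in the filled E9.5 null libraries against 34.6 and 36.4 CPM in WT, and *Hist1h4i* and *Nptx1* were lower in the filled null libraries at both E8.5 and E9.5.

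Over all stages, 4 of 8913 genes (0.0449%) were called in amniotic ectoderm, 1 higher (0.0112%) and 3 lower (0.0337%) in null, with stage as a term and 9 libraries. Of these libraries E7.5 null A had no WT library of its stage, so the genotype effect rests on E8.5 and E9.5. The alternative that leaves out E7.5 null A therefore does not test that effect. *Hist1h4i*, a histone H4 gene (chr13:22040636-22041362, minus strand), was 33.7 and 44.8 CPM in E8.5 WT and 11.2 and 14.95 CPM in E8.5 null libraries. It was 23.9 and 46.8 CPM in E9.5 WT and 10.6 and 10.5 CPM in E9.5 null libraries, so that null lay below WT at both stages. The log2 fold change was -1.77 (SE 0.26, adjusted p = 0.00118), and the call held in all 15 alternatives. Histone H4 genes are near copies of each other, so which of them the reads came from is uncertain.

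*Nptx1* was 12.6 and 8.45 CPM in E8.5 WT and 0.349 and 0 CPM in E8.5 null libraries, with 4 UMIs in null and 52 in WT over E8.5 and E9.5. Its log2 fold change was -4.13 (SE 0.63, adjusted p = 0.00152), and the call held in all 14 alternatives that could give it, with -5.10 without E9.5 null A. *Akr1b8*, an aldo-keto reductase with close relatives in the genome, was 16.8 and 12.7 CPM in E8.5 WT and 2.44 and 0 CPM in E8.5 null libraries, and over all stages had -2.53 (SE 0.50, adjusted p = 0.0324). *Cttnbp2*, a cortactin-binding protein, had 1.07 (SE 0.20, adjusted p = 0.0158). *Akr1b8* had an adjusted p of 0.108, 0.146 and 0.128 without E8.5 WT A, WT B and null A, and of 0.183 and 0.254 without E9.5 WT D and null A. *Cttnbp2* had 0.0551 and 0.13 without E8.5 WT A and null A, and 0.115, 0.173 and 0.0637 without E9.5 WT D, null A and null B.

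In non-neural ectoderm only a fit over all stages was possible, with 4 WT and 2 null libraries and 2 residual degrees of freedom. The 2 null libraries were of different stages, so the p-values of this fit measure no spread between null libraries of 1 stage. E8.5 WT B had no null library of its stage. The genotype effect thus rests on E7.5 WT A, WT B and null A and on E9.5 WT D and null A. The UMI counts and ratios given below for this label add E8.5 WT B to WT, so they mix stage with genotype. The fit called 20 of 8992 genes (0.222%), 7 higher and 13 lower in null, whereas DESeq2 called 1, *Grb10*. *Grb10*, an imprinted adaptor that restrains growth factor signalling (chr11:11930508-12038683, minus strand), was 167 and 176 CPM in E7.5 WT and 1.09 CPM in E7.5 null A. It was 418 CPM in E9.5 WT D and 14.1 CPM in E9.5 null A, with a log2 fold change of -5.69 (SE 0.26, adjusted p = 3.35e-11) that held in all 11 alternatives and was -7.17 without E9.5 WT D, -7.14 without E9.5 null A and -4.91 without E7.5 null A. Among the smaller libraries E8.5 null B, with 2 cells, had 336 CPM and thus lay within the WT range. Blood marker transcripts differed here too, with a summed level of 1318 CPM in E9.5 WT D and 38.5 CPM in E9.5 null A but 1.77 to 8.70 CPM in E7.5 WT and 24.8 CPM in E7.5 null A, and 8 endoderm markers summed to 173 to 220 CPM in E7.5 WT against 106 CPM in E7.5 null A. Their part in the calls was not tested.

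*Hist1h4i* fell in non-neural ectoderm too, from 29.0 and 31.9 CPM in E7.5 WT to 13.1 CPM in null A and from 67.1 CPM in E9.5 WT D to 13.3 CPM in null A. The log2 fold change was -1.65 (SE 0.28, adjusted p = 5.13e-04), and the call was lost without E9.5 WT D (0.274) or E9.5 null A (0.198) and with DESeq2 (0.948). Without E7.5 null A the value was -2.35, and that of *Pusl1* -3.11. *Pusl1*, a pseudouridine synthase, was 27.5, 25.7, 34.3 and 32.4 CPM in the WT libraries and 5.72 and 3.70 CPM in null, with -2.44 (SE 0.33, adjusted p = 6.91e-06), lost only with DESeq2 (0.127). In amniotic ectoderm over stages *Pusl1* had -1.32 (SE 0.32, adjusted p = 0.155).

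*Igfbp3* had -1.89 (SE 0.31, adjusted p = 4.49e-04), from 52.2 and 65.5 CPM in E7.5 WT to 13.6 CPM in null A, but 4.63 and 4.44 CPM in E9.5 WT D and null A. Without E7.5 null A it was -0.09 (adjusted p = 1), and E7.5 null B, with 3 cells, had 95.1 CPM. *Ubb*, a polyubiquitin gene, had 1.00 (SE 0.09, adjusted p = 9.28e-11) and stood at the fold threshold, and its call was lost in 6 of 11 alternatives. The value was 0.988 to 1.04 with 1 library left out and 0.56 (adjusted p = 0.811) once libraries with at least 5 cells entered.

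Several of the remaining calls in non-neural ectoderm were lost when 1 library was left out of this small fit. With 1 library left out, wherever the fit gave a value, the log2 fold change was 2.93 to 2.97 in *Sostdc1* and 2.93 to 4.03 in *Ppp2r2b*. The lowest value was identical in these unrelated genes, so it cannot show that their effect was kept. In *Foxd1* the log2 fold change was -3.43 to -2.51. With libraries of at least 5 cells the log2 fold change was 0.79 in *Sostdc1* (adjusted p = 0.908) and -0.62 in *Foxd1* (adjusted p = 0.978). *Oc90*, an otolith protein gene of the otic placode, had 115 UMIs in null and 0 in WT, all in 3 cells of E9.5 null A, and WT libraries with 9 and 4 cells that did not enter the fit had 79.2 and 65.0 CPM. With libraries of at least 5 cells its call was lost (adjusted p = 0.979), as it was without E9.5 WT D (1), which leaves no WT library of that stage. *Spp1*, encoding osteopontin, had 40 UMIs in null and 1 in WT, a ratio of 26.3 (4.45 to 1063), of which E9.5 null A had 28.9 CPM. *Ppp2r2b*, *Sostdc1* and *Tbx2*, called higher in null, are a phosphatase subunit, a secreted BMP and Wnt inhibitor and a T-box factor. Without E9.5 WT D the calls of *Spp1*, *Ppp2r2b* and *Sostdc1* were lost (adjusted p = 1 each), and that of *Spp1* was also lost without E7.5 WT A (0.103). The call of *Tbx2*, with a log2 fold change of 2.36, was lost without E7.5 WT A (2.36, adjusted p = 0.0693) or E9.5 WT D (0.54, adjusted p = 1). With libraries of at least 5 cells the value of *Tbx2* was 0.98 (adjusted p = 0.898). The log2 fold change of *Spp1* was 6.67, and 2.11 without E9.5 WT D, 7.47 without E7.5 WT B and 7.70 without E7.5 null A. Among the 13 lower genes, *Bmp4* had -1.06, *Aldh1a3*, a retinoic acid synthesis enzyme, -1.07, *Apela*, a peptide hormone, -1.33, and *Evx1*, a homeobox factor of the primitive streak, -1.61. The calls of *Bmp4* and *Aldh1a3* were lost without E7.5 WT A (0.344 and 0.119), E9.5 WT D (0.741 and 1) or E9.5 null A (0.651 and 1), and that of *Aldh1a3* also without E8.5 WT B (0.0724). The call of *Apela* was lost without E7.5 WT A, E8.5 WT B, E9.5 WT D or E9.5 null A (0.534, 0.0724, 0.44 and 0.395). That of *Evx1* was lost without any 1 of the 6 libraries, with adjusted p-values between 0.078 without E8.5 WT B and 0.974 without E7.5 null A. *Meox1*, a somite factor, had -4.76, which was -0.87 (adjusted p = 1) without E9.5 null A and -4.87 (adjusted p = 0.0693) without E7.5 WT A, and *Foxd1*, a forkhead factor, had -2.66 and lost its call without E9.5 WT D (0.926) or E9.5 null A (0.551). *Rhox5*, *Nr1h5* and *Spink1* had 2, 1 and 4 UMIs in null and 25, 23 and 38 in WT. The ratio was 0.0525 (0.00603 to 0.211) for *Rhox5* and 0.0285 (6.93e-04 to 0.176) for *Nr1h5*. Without E7.5 WT A, E7.5 null A or E9.5 null A both calls were lost (0.126, 0.787 and 0.198 for *Rhox5*, 0.319, 0.149 and 0.715 for *Nr1h5*), that of *Rhox5* was also lost without E9.5 WT D (0.26), and that of *Spink1* without E7.5 null A (1). Without E7.5 null A the log2 fold change was -2.71 for *Apela*, -2.78 for *Evx1*, -5.70 for *Rhox5*, -6.90 for *Nr1h5* and -8.55 for *Meox1*. Without E9.5 null A it was -3.78 for *Nr1h5* and -1.68 for *Aldh1a3*, and without E9.5 WT D -1.72 for *Aldh1a3*.

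Leaving out 1 library moved the number of calls strongly, as the alternatives for each comparison show. Without E7.5 WT B or E7.5 null A the non-neural ectoderm fit called 49 and 47 genes, and without E7.5 WT A or E8.5 WT B it called 13 and 8. In amniotic ectoderm at E8.5 the fit called 24, 2, 21 and 27 genes without WT A, WT B, null A and null B, where 1 library stands for a genotype and is assumed to vary like the other. At E9.5 it called 51 and 16 without WT A and WT D, against 7 and 5 without null A and null B.

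Imprinted genes are active from only 1 copy, set by parental origin, and *Grb10* and *H19* among them differed widely between null libraries. The summed level of 31 imprinted genes was 9163 and 9268 CPM in the E8.5 null libraries and 9513 and 10062 CPM in the E9.5 null libraries of amniotic ectoderm with more than 15 cells, against 9089 and 10622 CPM in E8.5 WT and 11339 and 11720 CPM in E9.5 WT. In non-neural ectoderm the sum was 2670 CPM in E7.5 null A against 3344 and 3958 CPM in WT, and 4701 CPM in E9.5 null A against 6085 CPM in WT D. In amniotic ectoderm *Grb10* was 750 and 609 CPM in E8.5 WT and 36.6 and 576 CPM in E8.5 null A and null B. At E9.5 it was 665, 1069, 920 and 844 CPM in WT and 3.30, 172, 0 and 0 CPM in null, so that no null value reached the lowest WT value. The fits gave -1.26 (SE 1.73, edgeR adjusted p = 0.937) at E8.5 and -3.41 (SE 1.71, adjusted p = 1.00) at E9.5. The cells of null libraries without a tdTomato UMI differed from the others in some libraries. In E9.5 null B *Grb10* was 60.6 CPM in 22 cells with a tdTomato UMI and 874 CPM in 3 cells without one. In E8.5 null A it was 12.1 CPM in 102 cells with and 503 CPM in 5 cells without, but in E8.5 null B it was 579 CPM in the 24 cells with a tdTomato UMI.

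*H19*, an imprinted growth-restraining RNA, was 1192 and 846 CPM in E8.5 WT and 759 and 8.97 CPM in E8.5 null A and null B, the reverse order of *Grb10* in the same pair of libraries. At E9.5 it was 1876, 1663, 2288 and 1736 CPM in WT and 3.96, 310, 0 and 473 CPM in null, and the groups did not overlap. In E9.5 null B *H19* was 84.9 CPM in 22 cells with a tdTomato UMI and 1738 CPM in 3 cells without one. In E8.5 null A it was 762 CPM in 102 cells with and 699 CPM in 5 cells without. The log2 fold change at E9.5 was -3.73 (SE 1.94, adjusted p = 1.00). *Igf2*, the growth factor gene that neighbours *H19*, was 1035, 1005, 1135 and 843 CPM in E9.5 WT and 1776, 2096, 2467 and 2009 CPM in E9.5 null, with every null library above every WT library. Its log2 fold change was 1.00 (SE 0.14, adjusted p = 2.33e-04), just under the fold threshold, and at E8.5 it was 0.45 (SE 0.35, adjusted p = 0.882). *Slc38a4*, an imprinted amino acid transporter, had 0.82 (SE 0.16, adjusted p = 0.0294) at E9.5 and 0.68 (SE 0.12, adjusted p = 0.00923) over stages, both under the fold threshold. Of 27 tested imprinted genes at E9.5, 1 was called (*Nnat*, lower), against 0.0875% of all genes, and in non-neural ectoderm 1 of 26 (*Grb10*, lower), against 0.222%.

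**Figure D5:**
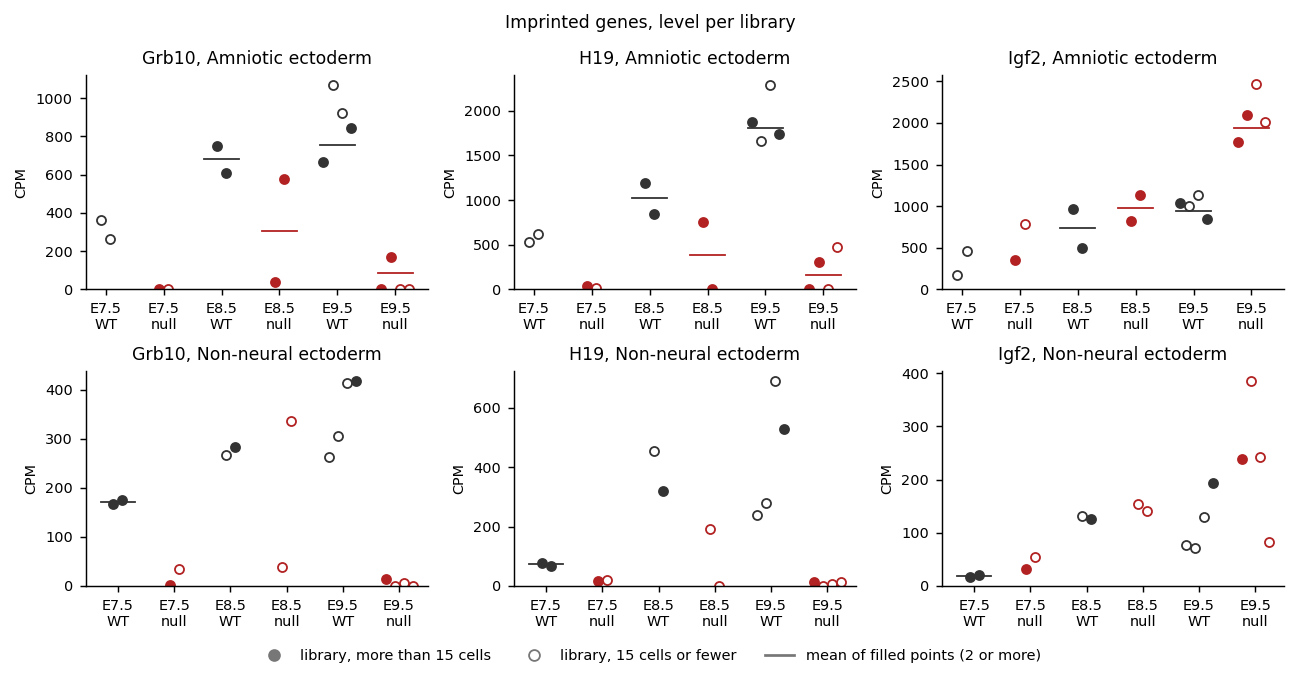
Level in CPM (vertical axes) of *Grb10*, *H19* and *Igf2* in each library by stage and genotype, for amniotic ectoderm (top row) and non-neural ectoderm (bottom row), with WT in black and null in red. Filled points are libraries with more than 15 cells of the label, hollow points those with fewer, and lines are means of filled points. In amniotic ectoderm at E8.5, *Grb10* was low in null A (36.6 CPM) and not in null B (576 CPM), while *H19* was low in null B (8.97 CPM) and not in null A (759 CPM).

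The effect of genotype was also compared between the 2 labels in the 4 libraries with more than 15 cells of each, with the library as a term. Of 9020 genes, 1 was called (0.0111%). *Pdgfa*, the ligand of a growth factor receptor of mesoderm (chr5:138976014-138997370, minus strand), was 43.8 CPM in amniotic ectoderm of E9.5 WT D and 27.9 CPM in that of E8.5 WT B, and 173 and 101 CPM in E7.5 null A and E9.5 null A. In non-neural ectoderm of the same libraries, in the same order, it was 233 and 180 CPM in WT and 213 and 129 CPM in null. The fitted null effect in non-neural minus that in amniotic ectoderm was -2.22 (SE 0.26, edgeR adjusted p = 0.00490). WT libraries were of E8.5 and E9.5 and null ones of E7.5 and E9.5, so this test cannot separate genotype from stage. That call was lost with DESeq2 (0.0837), with libraries of at least 5 cells (-1.43, adjusted p = 1) and without null-sorted cells lacking a tdTomato UMI (0.0901). Fits with stage as a term gave *Pdgfa* 0.88 (SE 0.23) in amniotic and -0.21 (SE 0.21) in non-neural ectoderm, neither called. *Grb10* had a difference of 3.15 (SE 0.48, adjusted p = 0.0545), which missed the threshold. Its fits with stage as a term, -5.69 in non-neural and -2.23 in amniotic ectoderm, lay in the reverse order.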

How the data were processed

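Raw UMI counts per gene and cell were deposited by the authors, who aligned reads to mm10 with Cell Ranger and deposited no normalization. Their table of cells gives the doublet call with its score, the mitochondrial percent of UMIs and the fraction of the 25 nearest atlas cells that carry the transferred label, all as the authors computed them. The table's library names match no sample title, so the group of a library was read from the table's stage and sort columns, and its pool is not known. The methods describe fewer E9.5 embryos than the 4 libraries per genotype, so n counts libraries. Counts were summed per library and label (16 libraries, more than 15 cells) and tested with edgeR 4.0.16 (filterByExpr, TMM, robust quasi-likelihood, Benjamini-Hochberg over all genes tested), in R 4.3.3. Called means adjusted p under 0.05 and an absolute log2 fold change over 1. An SE of an edgeR fit is the absolute log2 fold change over the square root of the F statistic. It is unreliable where F is near 0. Genes that are predicted, ribosomal, mitochondrial, haemoglobin or Y-linked, Xist, Tsix and the tdTomato sequence were left out of the fits (8176 of 29453 genes). DESeq2 1.42.0 was an alternative. Intervals are 95% and, like every count ratio, cover counting error only. For each comparison up to 10 genes per direction with the largest fold change among those with groups apart in every library are named, plus markers, listed genes that were called or whose list is described, and genes called in both labels. Members, gene lists and tests were chosen with earlier results of these data known. Some genes that the rule names are not reported here. Gene positions are from GENCODE on GRCm38 and promoters from RefSeq.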

Additional observations from a re-analysis of the deposited data

Results flagged for a closer look

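*Pdgfa* was called in the test of a different null effect between the labels, with -2.22 for non-neural minus amniotic ectoderm. Its level was 27.9 CPM in amniotic against 180 CPM in non-neural ectoderm of E8.5 WT B, and 43.8 against 233 CPM in E9.5 WT D. In E7.5 null A it was 173 against 213 CPM and in E9.5 null A 101 against 129 CPM. The 4 libraries behind it span 3 stages, and WT and null differ in stage, so genotype and stage cannot be told apart. The call was lost with DESeq2 (adjusted p = 0.0837), with libraries of at least 5 cells (-1.43, adjusted p = 1) and without null-sorted cells lacking a tdTomato UMI (0.0901).

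The E9.5 against E8.5 effect differed between amniotic ectoderm and surface ectoderm in 190 genes, by the test of the difference, with *Upk1a*, *Cldn3* and *Cldn4* rising more in amniotic ectoderm and *Acta2* falling more. The library shares of both labels at E9.5, in 4 groups of 4 libraries, held no library far from the others by Dixon's test (critical value 0.829).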

How the results depend on the processing

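Among the called genes named in the text, none turned its direction in any alternative that could give it, and of the values followed 759 kept their side of the threshold and 171 lost it. Genes named without a call were not followed. No paired analysis was possible because the names of the libraries could be tied to no sample title, so no library has a known replicate number or pool and no block could be fitted. A minimum of more than 30 cells gave no value for amniotic ectoderm at E8.5 or E9.5 alone, for non-neural ectoderm or for the difference between labels. The number of calls depended on the setting, and the cause was not tested. In amniotic ectoderm at E8.5 (1 call) there were 2 with DESeq2, 17 without a filter on low counts, 5 without null-sorted cells lacking a tdTomato UMI, 4 with all stages in 1 fit, 4 with cells thinned to 10000 UMIs and 2 to 27 when 1 library was left out. At E9.5 (7 calls) there were 3 with DESeq2, 20 without the filter, 3 with all stages in 1 fit, 3 with thinned cells and 5 to 51 with 1 library left out. Over stages (4 calls) there were 2 with DESeq2, 19 without the filter, 41 with more than 30 cells and 2 to 13 with 1 library left out. In non-neural ectoderm (20 calls) there were 1 with DESeq2, 36 without the filter, 33 without the fold threshold, 5 with libraries of at least 5 cells and 8 to 49 with 1 library left out. For the difference between labels (1 call) there were 0 with DESeq2, where 28 genes had an unadjusted p under 0.05, 10 without the filter, 2 with WT-sorted tdTomato cells kept, 0 without null-sorted cells lacking tdTomato, 0 with at least 5 cells and 7 to 61 with 1 library left out. Between stages (295 calls) there were 448 without the filter, 905 without the fold threshold and 213 to 364 with 1 library left out, and DESeq2 called 256, of which 240 were the same genes. With 1 library left out, the log2 share difference ranged from -1.35 to 2.05 (amniotic ectoderm E7.5), -1.73 to 0.31 (non-neural ectoderm E7.5) and -0.14 to 0.68 (non-neural ectoderm E9.5), and kept its sign at 0.47 to 1.88 (amniotic ectoderm E8.5), 0.08 to 0.72 (amniotic ectoderm E9.5) and -2.02 to -0.58 (non-neural ectoderm E8.5). The difference in mitochondrial percent ranged from -0.201 to 0.111 in amniotic ectoderm (0.1 with more than 30 cells) and from -0.25 to 0.72 in non-neural ectoderm. The difference of median mapped stages in non-neural ectoderm moved from -0.75 to 0 days. Settings with at least 5 cells were chosen after seeing the data.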
